A study of Homo sapiens with 6 samples.

Results

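The coagulation, fibrinolysis and serpin genes were followed in Hep-G2 cells after knockdown of CLGN. The authors used this human liver cancer line to study hepatocellular carcinoma, and the labels describe the cells as hepatocytes. The group held 40 genes of 58735 in the table, and each was found by its gene symbol. Of these, 33 reached at least 1 FPKM (fragments scaled to gene length and library size) in at least 3 libraries and were tested with 13074 genes in all. RNA was sequenced from 3 libraries of the control group sh-NC (genotype WT) and 3 libraries of the group sh-CLGN (genotype CLGN knock down). The CLGN product calmegin is a chaperone that resides in the endoplasmic reticulum. Both groups carried a lentiviral short hairpin and were selected with puromycin, and all 6 libraries bore the batch label 0DAY. Each group had 1 hairpin, so loss of CLGN and any other effect of that hairpin or of the selected culture cannot be told apart. Nothing stated that the 3 libraries of a group came from separate cultures. The p-values therefore measure the spread between these libraries, which may be technical.

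Coagulation is a cascade of liver-made proteases that ends with thrombin cutting fibrinogen into fibrin. Tissue factor starts it on cell surfaces, antithrombin, the protein C system and tissue factor pathway inhibitor restrain it, and plasmin later dissolves the clot. Serpins are suicide inhibitors of proteases, although several liver serpins carry hormones instead. Hepatocytes secrete most of these proteins through the endoplasmic reticulum, where many of them fold with the help of chaperones.

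The libraries held between 14955816 and 16244639 reads, recovered from FPKM and gene length. CLGN itself fell from 23.8 ± 2.54 FPKM in sh-NC to 8.98 ± 0.453 FPKM in sh-CLGN (SD, n = 3 each), a log2 fold change of -1.31 (SE 0.081, adjusted p = 8.35e-06, limma). All 11 hepatocyte markers were present at 1 FPKM or more, and 9 of them were lower in sh-CLGN (39.0% of all tested genes were lower). Their summed level was 3680 to 3790 FPKM in sh-NC and 2660 to 2780 FPKM in sh-CLGN. Most of that difference was albumin, with ALB at 2007 ± 70.9 and 1076 ± 27.7 FPKM, and the other 10 markers summed to 1680 to 1780 FPKM in sh-NC and 1590 to 1670 FPKM in sh-CLGN. Fibroblast markers summed to 6.70 to 8.19 FPKM in sh-NC and 47.4 to 49.0 FPKM in sh-CLGN. All 5 tested genes were higher (26.7% of all tested genes were higher). Most of the sum was COL1A2, at 4.20 ± 0.561 FPKM in sh-NC and 38.7 ± 0.614 FPKM in sh-CLGN. COL1A1, COL3A1 and LUM were below 1 FPKM in every sh-NC library and passed the filter through sh-CLGN, so these 3 had to be higher, while DCN, THY1 and FAP had at most 3 reads in any library. Of 8 endothelial markers, 1 reached a mean of 1 FPKM (summed level 3.45 to 3.78 FPKM in sh-NC and 2.47 to 2.83 FPKM in sh-CLGN), and VWF, KDR, TEK and ERG had at most 3 reads. Of 6 megakaryocyte and platelet markers, 1 reached that level (1.1 to 1.5 and 1.58 to 2.02 FPKM), with PF4, PPBP and GP9 at 3 reads or fewer. Of 6 macrophage markers, none did (1.55 to 1.75 and 1.02 to 1.37 FPKM), with CD68 and CD163 at 3 reads or fewer. In bulk RNA, fewer cells of a kind and less RNA per cell cannot be told apart.

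Most tested members changed, more of them downwards, and few by a large amount. At an adjusted p of at most 0.05 by limma, 20 of the 33 tested members were lower in sh-CLGN (60.6%) and 9 were higher (27.3%). The corresponding shares of all tested genes were 39.0% lower and 26.7% higher. FGL1, A2M, SERPINA5 and SERPING1 did not pass. When the log2 fold change also had to reach 1 in either direction, 3 members were lower (F2, F12 and SERPINF2) against 3.19% of all tested genes, and 2 were higher (F3 and TFPI2) against 3.09%. The libraries of the 2 groups did not overlap for 30 of the 33 members, compared with 70.2% of all tested genes. The median log2 fold change was -0.22 over the members and -0.08 over all tested genes. F11 and F13B were below 1 FPKM in every library of 1 group and passed the filter through the other group, so they had to differ. Scaling by the recovered read totals, in place of the library sizes behind the deposited values, raised the median of all tested genes by 0.16 and left 12 members lower and 11 higher. The calls of 12 members (F7, F10, F11, PROC, PROS1, TFPI, PLG, PLAU, CPB2, SERPINA1, SERPINC1 and SERPINF1) were lost under at least 1 other scaling or the GC correction.

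**Figure D1:**
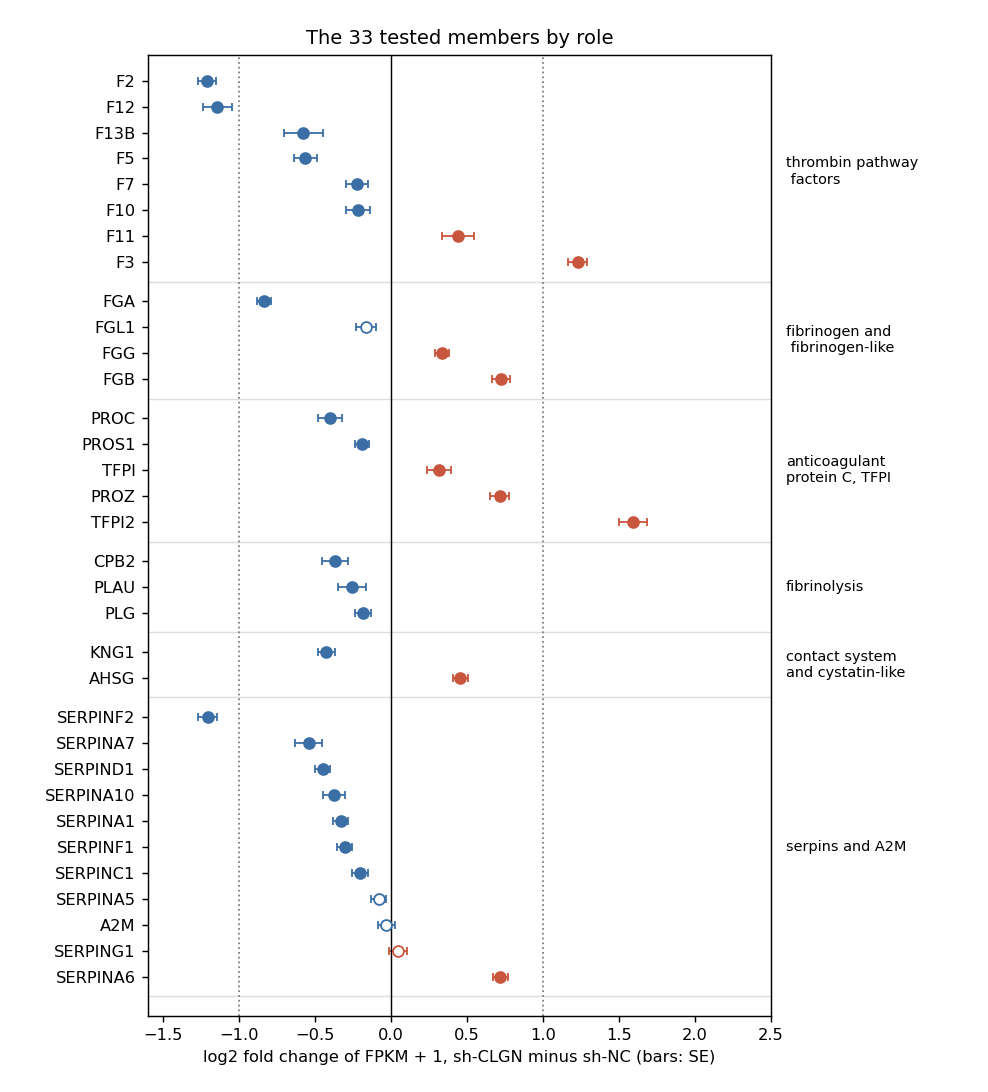
Log2 fold change (sh-CLGN minus sh-NC, on FPKM + 1) of the 33 tested members, grouped by role; bars are standard errors, filled points passed an adjusted p of 0.05 by limma, and dotted lines mark a log2 fold change of 1 in either direction. F2, F12 and SERPINF2 lie beyond the lower line and F3 and TFPI2 beyond the upper one.

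The members covered a wide range of levels, and 7 of them averaged above 100 FPKM. SERPINA1, which encodes alpha-1 antitrypsin, was the most abundant, at 672 ± 28.2 FPKM in sh-NC and 533 ± 6.57 FPKM in sh-CLGN. AHSG, FGB, A2M, FGA, SERPINF2 and FGG were the other 6. F9, which encodes factor IX, had 0 reads in every library. Together the members took 1.07%, 1.07% and 1.08% of the reads in the sh-NC libraries and 1.14%, 1.12% and 1.1% in the sh-CLGN libraries. The groups did not overlap, and the two-sided exact permutation p was 0.1, the smallest that 3 against 3 libraries allow. On summed TPM, FPKM rescaled to the same total in each library, the share was 1.03% ± 0.0205 and 1.05% ± 0.0168, with overlapping groups (exact permutation p = 0.3). The total share thus moved little while single members moved in opposite directions.

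**Figure D2:**
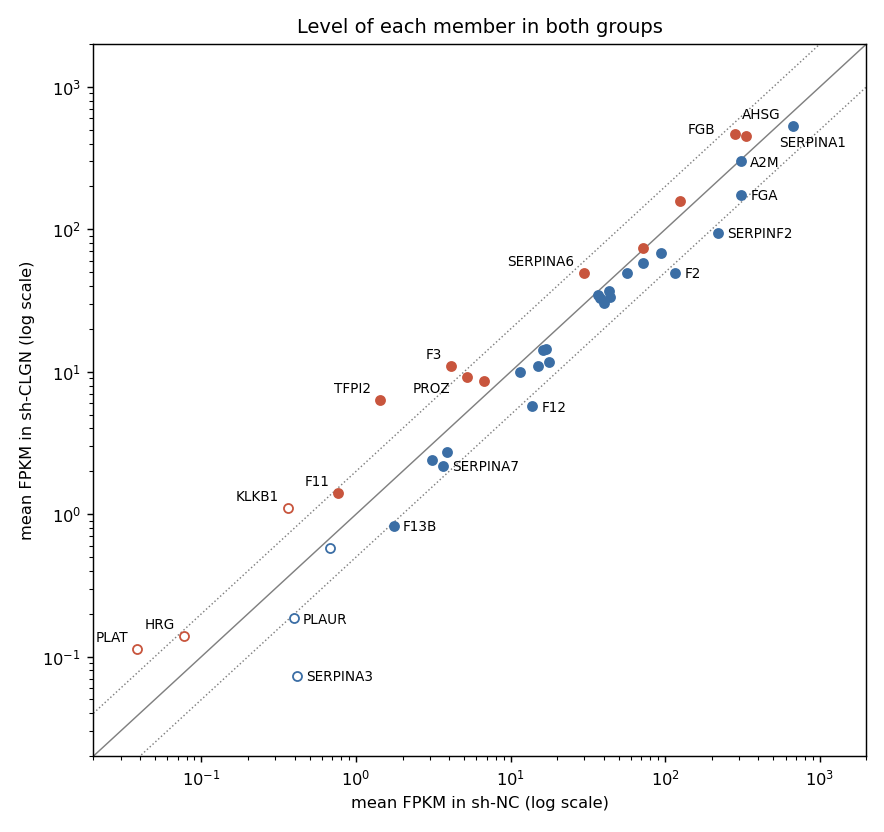
Mean FPKM of each member in sh-NC (x axis) and sh-CLGN (y axis), both on log scales; the solid line marks equal levels, dotted lines a doubling or halving, filled points are tested members and open points are members below the filter. TFPI2, F3, KLKB1 and PLAT lie above the upper dotted line and SERPINF2, F2, F12, F13B, PLAUR and SERPINA3 below the lower one, while F9 had no reads and is not drawn.

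The fibrinogen chains moved apart. FGA, FGB and FGG encode the alpha, beta and gamma chains, which assemble in equal numbers into fibrinogen and lie side by side on chromosome 4 (GRCh38), with 12040 bases between FGB (154562956 to 154571086) and FGA (154583126 to 154590766) and 13368 bases between FGA and FGG (154604134 to 154612967). Their promoters, 250 bases before to 50 after the start, are shown because the 3 neighbours did not change together. The sequences are from RefSeq (GRCh38.p14) and read in the direction of transcription from chr4:154590693-154590992 (minus strand), chr4:154562730-154563029 (plus strand) and chr4:154612607-154612906 (minus strand). Capitals mark GTTAAT or its reverse complement, the core of the motif of the liver factor HNF1.
FGA: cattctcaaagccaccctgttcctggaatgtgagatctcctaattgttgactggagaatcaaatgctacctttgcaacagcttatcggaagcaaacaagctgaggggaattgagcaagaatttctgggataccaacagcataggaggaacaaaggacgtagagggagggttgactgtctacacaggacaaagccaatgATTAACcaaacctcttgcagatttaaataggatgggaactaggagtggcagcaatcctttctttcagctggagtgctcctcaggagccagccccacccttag
FGB: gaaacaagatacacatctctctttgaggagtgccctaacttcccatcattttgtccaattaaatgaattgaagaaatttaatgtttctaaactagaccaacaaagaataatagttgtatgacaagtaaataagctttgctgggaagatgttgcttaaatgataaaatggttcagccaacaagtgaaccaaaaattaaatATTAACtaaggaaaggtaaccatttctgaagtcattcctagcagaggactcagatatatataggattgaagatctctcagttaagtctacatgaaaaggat
FGG: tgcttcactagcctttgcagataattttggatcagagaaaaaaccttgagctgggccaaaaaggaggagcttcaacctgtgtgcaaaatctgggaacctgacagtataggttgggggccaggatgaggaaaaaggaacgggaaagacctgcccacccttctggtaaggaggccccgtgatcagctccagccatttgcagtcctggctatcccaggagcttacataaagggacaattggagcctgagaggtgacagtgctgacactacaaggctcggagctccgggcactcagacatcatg
Counted from the start of transcription, the match began at -52 in FGA and at -51 in FGB, and the FGG window held none.

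FGA was at 306, 314 and 313 FPKM in the sh-NC libraries (replicates in order) and at 179, 176 and 167 FPKM in the sh-CLGN libraries. Each sh-CLGN library lay below each sh-NC library, and FGA fell by 0.83 on the log2 scale (SE 0.046, adjusted p = 5.58e-06, limma). FGB was at 284, 265 and 292 FPKM in the sh-NC libraries and at 489, 458 and 442 FPKM in the sh-CLGN libraries. Here each sh-CLGN library was the higher, and the log2 fold change was 0.72 (SE 0.060, adjusted p = 2.98e-05, limma). FGG was at 124, 123 and 128 FPKM in the sh-NC libraries and at 163, 158 and 153 FPKM in the sh-CLGN libraries. It rose in the same direction as FGB by a smaller amount, with a log2 fold change of 0.34 (SE 0.046, adjusted p = 0.000379, limma). With the trend on GC content removed, the FGG change was 0.12 (adjusted p = 0.0307, limma).

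Ratios between chains within a library do not depend on the scaling of that library, but a trend on GC content can act on them. GC content was 44.7% for FGA, 42.8% for FGB and 38.8% for FGG. With that trend removed, their log2 fold changes were -0.82, 0.67 and 0.12. The ratios below are without that correction. The FGB to FGA ratio of FPKM was 0.928, 0.846 and 0.932 in the sh-NC libraries and 2.74, 2.61 and 2.64 in the sh-CLGN libraries, a 2.95-fold difference of the means. The FGG to FGA ratio was 0.405, 0.392 and 0.410 in the sh-NC libraries and 0.913, 0.898 and 0.917 in the sh-CLGN libraries, a 2.26-fold difference. The FGB to FGG ratio differed less, at 2.24 ± 0.075 and 2.93 ± 0.0604. In each of these ratios the groups did not overlap, with an exact permutation p of 0.1, the smallest possible. FGA made up 43.4% ± 1.1 of the summed chains in sh-NC and 21.9% ± 0.348 in sh-CLGN. The summed FPKM of the chains was 717 ± 15.2 in sh-NC and 795 ± 34.6 in sh-CLGN (exact permutation p = 0.1). FGL1, a fibrinogen-like protein secreted by hepatocytes, was at 16.1 ± 1.14 and 14.3 ± 0.719 FPKM and did not pass (log2 fold change -0.17, adjusted p = 0.0534, limma). It passed without sh-NC replicate 1 (-0.20, adjusted p = 0.0431, limma) and by voom on the recovered reads (-0.18, adjusted p = 0.048, voom in limma). With the GC trend removed it passed as lower at -0.28 (adjusted p = 0.000763, limma), whereas with read totals its sign turned, to 0.02. FGL1 overlaps AC087273.2 on the opposite strand, which was at 9.91 FPKM in sh-NC and 10.9 FPKM in sh-CLGN.

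**Figure D3:**
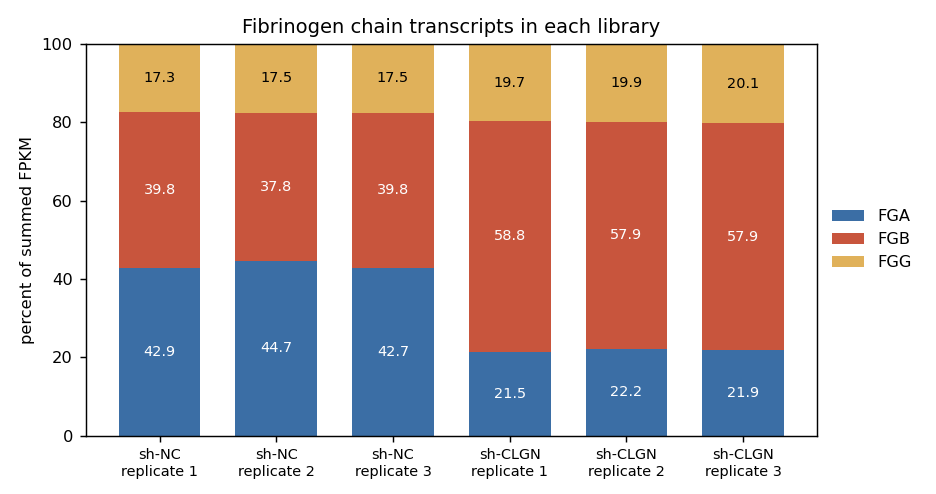
Share of FGA, FGB and FGG in their summed FPKM in each of the 6 libraries, in percent. FGA takes 42.7% to 44.7% in the sh-NC libraries and 21.5% to 22.2% in the sh-CLGN libraries.

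Among the factors of the thrombin pathway, 6 of 8 tested genes were lower in sh-CLGN and 2 were higher. Over all tested genes 39.0% were lower and 26.7% higher, the shares to set beside this and the later group counts. Of the 8, F11 and F13B had to differ, as said above. F2 encodes prothrombin, the precursor of thrombin, and lies on chromosome 11 (46719180 to 46739506). Its level was 120, 121 and 107 FPKM in the sh-NC libraries and 49.6, 49.4 and 49.0 FPKM in the sh-CLGN libraries. All sh-CLGN libraries were low and close to each other, 2.35-fold below sh-NC on average (log2 fold change -1.21, SE 0.056, adjusted p = 2.74e-06, limma). Its promoter from RefSeq (chr11:46718963-46719262, plus strand), shown as that of the prothrombin gene, held the same motif at -34, again in capitals.
F2: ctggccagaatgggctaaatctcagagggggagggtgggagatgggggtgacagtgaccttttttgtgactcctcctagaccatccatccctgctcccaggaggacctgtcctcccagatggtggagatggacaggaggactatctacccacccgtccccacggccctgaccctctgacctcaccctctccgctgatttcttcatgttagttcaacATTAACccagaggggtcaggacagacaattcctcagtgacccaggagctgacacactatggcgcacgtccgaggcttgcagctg

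F12 encodes factor XII, which starts the contact pathway (chromosome 5, 177402140 to 177409576). It was at 13.9, 15.4 and 12.2 FPKM in the sh-NC libraries and at 5.28, 5.46 and 6.35 FPKM in the sh-CLGN libraries. The groups were well apart, and F12 fell by 1.14 on the log2 scale (SE 0.094, adjusted p = 2.95e-05, limma). F12 overlaps GRK6, which lies on the opposite strand and was at 24.9 FPKM in sh-NC and 12.7 FPKM in sh-CLGN, and the strand setting of the counting was not given in the sources used here. With the GC trend removed, the log2 fold changes of F2 and F12 were -0.96 (adjusted p = 1.01e-06, limma) and -0.81 (adjusted p = 1.37e-05, limma).

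F3 encodes tissue factor, the cell-surface trigger of coagulation (chromosome 1, 94529225 to 94541800). It was at 4.11, 3.79 and 4.38 FPKM in the sh-NC libraries and at 10.9, 11.2 and 10.7 FPKM in the sh-CLGN libraries. All sh-CLGN libraries were high, 2.67-fold above sh-NC on average (log2 fold change 1.23, SE 0.062, adjusted p = 3.72e-06, limma). The summed level of the fibroblast markers above, mostly COL1A2, rose in the same libraries, and its part in the F3 result was not tested.

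F5, the cofactor of factor Xa, fell from 17.8 ± 1.29 to 11.7 ± 0.984 FPKM. F13B, the carrier subunit of factor XIII, fell from 1.75 ± 0.420 to 0.828 ± 0.0800 FPKM. F7 and F10, which encode the proteases that join tissue factor and make thrombin, fell by small amounts, with log2 fold changes of -0.22 each (adjusted p = 0.0252 and 0.0445, limma), and both signs turned with the GC trend removed, to 0.02 and 0.03. F7 lost its call without sh-NC replicate 1 or without sh-CLGN replicate 1 or 2, and F10 without any 1 library other than sh-NC replicate 3, with F10 at -0.13 without sh-NC replicate 1. F10 also turned under quantile normalization, to 0.06. F7 and F10 are neighbours 2133 bases apart on chromosome 13, and the F10 to F7 ratio was 2.55 ± 0.186 in sh-NC and 2.57 ± 0.201 in sh-CLGN. F11, which encodes factor XI, rose from 0.769 ± 0.0658 to 1.41 ± 0.267 FPKM.

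**Figure D4:**
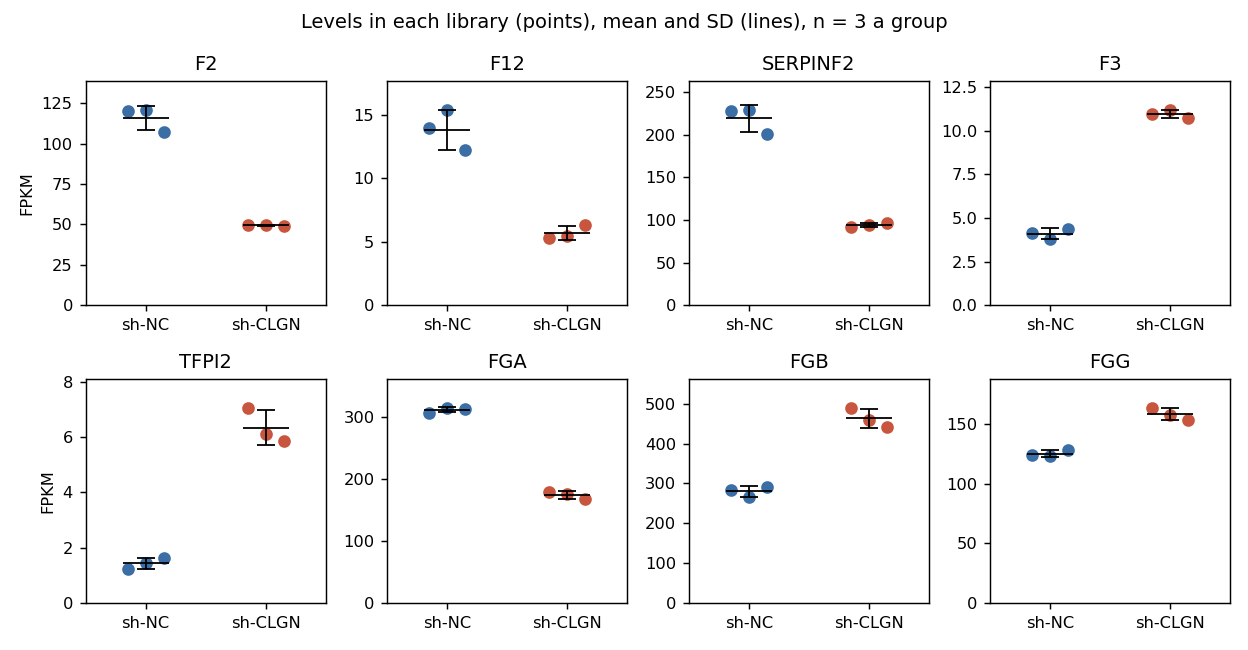
FPKM of the members past both thresholds (F2, F12, SERPINF2, F3, TFPI2) and of the fibrinogen chains in each library; points are libraries, lines are means with SD (n = 3 a group), and each panel starts at 0. In all 8 panels the groups do not overlap, with F3, TFPI2, FGB and FGG higher and the others lower in sh-CLGN.

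Among the anticoagulants, 3 of 5 tested genes were higher and 2 lower. TFPI2, a Kunitz-type inhibitor related to tissue factor pathway inhibitor and active mainly on plasmin and other matrix proteases, had the largest rise of the tested members (chromosome 7, 93885396 to 93890991). It was at 1.23, 1.43 and 1.64 FPKM in the sh-NC libraries, from 46 to 68 reads, and at 7.06, 6.12 and 5.87 FPKM in sh-CLGN, from 254 to 321 reads. The groups were far apart, with a 4.43-fold higher mean in sh-CLGN (log2 fold change 1.59, SE 0.092, adjusted p = 6.23e-06, limma). TFPI2 overlaps GNGT1 on the opposite strand, which was at 1.27 FPKM in sh-NC and 0.848 FPKM in sh-CLGN.

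TFPI, the inhibitor of the tissue factor and factor VIIa complex, rose from 6.75 ± 0.765 to 8.63 ± 0.381 FPKM, and this call was lost with the GC trend removed (log2 fold change 0.10, adjusted p = 0.151, limma). Because F3 rose further, the TFPI to F3 ratio went from 1.65 ± 0.126 in sh-NC to 0.789 ± 0.0430 in sh-CLGN, without overlap (exact permutation p = 0.1). PROZ, protein Z, the cofactor of the serpin SERPINA10, rose from 5.198 ± 0.164 to 9.18 ± 0.630 FPKM. It overlaps an antisense gene, AL137002.1, which was at 0.362 FPKM in sh-NC and 1.77 FPKM in sh-CLGN. PROC, protein C, fell from 40.2 ± 3.78 to 30.1 ± 2.22 FPKM. PROS1, its cofactor protein S, fell from 56.3 ± 2.26 to 49.1 ± 0.514 FPKM (log2 fold change -0.19), and its sign turned under quantile normalization, to 0.09.

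All 3 tested fibrinolysis genes were lower on the deposited scaling, each by a small amount. With read totals all 3 calls were lost. The log2 fold changes were then -0.007 for PLG, -0.12 for PLAU and -0.18 for CPB2 (adjusted p = 0.918, 0.28 and 0.116, limma). PLG, plasminogen, was at 11.5 ± 0.422 FPKM in sh-NC and fell by 0.19 on the log2 scale (SE 0.052, adjusted p = 0.0142, limma). Without sh-CLGN replicate 2 the PLG call was lost (-0.17, adjusted p = 0.064, limma). CPB2 encodes the carboxypeptidase TAFI, which slows fibrinolysis, and fell from 43.7 ± 5.14 to 33.6 ± 1.65 FPKM. PLAU, the urokinase activator of plasminogen, fell from 3.10 ± 0.394 to 2.41 ± 0.204 FPKM. The PLAU call (adjusted p = 0.0363, limma) was lost when any 1 library other than sh-NC replicate 3 was left out, with log2 fold changes of -0.29 to -0.19.

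The 2 tested plasma proteins of the cystatin type moved in opposite directions. AHSG, fetuin-A, an inhibitor of calcification, rose from 332 ± 13.6 to 455 ± 5.205 FPKM (log2 fold change 0.46, SE 0.049, adjusted p = 0.000112, limma). KNG1, kininogen, the source of bradykinin and a cofactor of the contact pathway, fell from 15.02 ± 0.876 to 10.9 ± 0.178 FPKM (log2 fold change -0.43, SE 0.056, adjusted p = 0.000306, limma). Both belong to 1 cluster on chromosome 3, and the AHSG to KNG1 ratio was 22.1 ± 0.728 in sh-NC and 41.8 ± 0.212 in sh-CLGN (exact permutation p = 0.1).

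Of 11 tested serpins and A2M, 7 were lower, 1 was higher and 3 did not pass. SERPINF2 encodes alpha-2 antiplasmin, the main inhibitor of plasmin (chromosome 17, 1742836 to 1755268). Its level was 228, 229 and 201.3 FPKM in the sh-NC libraries and 92.2, 93.9 and 96.6 FPKM in the sh-CLGN libraries. All sh-CLGN libraries lay far below sh-NC, 2.33-fold on average (log2 fold change -1.21, SE 0.061, adjusted p = 3.76e-06, limma). With the GC trend removed the log2 fold change was -0.94 (adjusted p = 7.82e-07, limma). Its neighbour SERPINF1, 6691 bases away, encodes PEDF, an inhibitor of vessel growth, and fell by less, from 72.1 ± 3.14 to 58.2 ± 1.21 FPKM. The SERPINF1 to SERPINF2 ratio was 0.329 ± 0.0144 in sh-NC and 0.618 ± 0.0267 in sh-CLGN (exact permutation p = 0.1).

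SERPINA6 encodes the cortisol carrier of plasma and was the only tested serpin of the 40 genes that rose, from 29.6 ± 0.964 to 49.4 ± 2.29 FPKM (log2 fold change 0.72, SE 0.052, adjusted p = 1.7e-05, limma). The windows of SERPINA7 (matches at -88 and -76) and SERPINA10 (at -55) also held the motif, and both of these genes fell. The SERPINA6 promoter from RefSeq (chr14:94323287-94323586, minus strand) is shown because it held 3 matches to the motif, at -170, -115 and -58 from the start.
SERPINA6: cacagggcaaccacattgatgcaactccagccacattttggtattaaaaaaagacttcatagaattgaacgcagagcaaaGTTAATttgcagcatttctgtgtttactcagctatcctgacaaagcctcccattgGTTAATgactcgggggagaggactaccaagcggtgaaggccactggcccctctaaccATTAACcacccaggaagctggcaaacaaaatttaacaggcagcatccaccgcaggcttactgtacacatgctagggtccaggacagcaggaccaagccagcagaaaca
On the same stretch of chromosome 14, SERPINA10, 10977 bases away, fell from 3.85 ± 0.219 to 2.73 ± 0.209 FPKM, and SERPINA1, 53353 bases away, fell by 0.33 on the log2 scale (SE 0.051, adjusted p = 0.000677, limma). SERPINA5, the protein C inhibitor, was at 36.6 ± 0.882 and 34.6 ± 1.61 FPKM with overlapping groups. Its log2 fold change of -0.08 turned to 0.11 with read totals. SERPINA5 overlaps SERPINA4 on the same strand, which was at 7.54 FPKM in sh-NC and 8.42 FPKM in sh-CLGN. The 4 members SERPINA6, SERPINA10, SERPINA1 and SERPINA5 thus did not move together.

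SERPINA7, the thyroxine carrier, fell from 3.67 ± 0.541 to 2.19 ± 0.0516 FPKM. SERPIND1, heparin cofactor II, fell from 94.2 ± 2.03 to 68.6 ± 2.53 FPKM and lies on the opposite strand to PI4KA, which was at 14.4 FPKM in sh-NC and 11.3 FPKM in sh-CLGN. SERPINC1, antithrombin, fell from 37.8 ± 1.61 to 32.7 ± 1.07 FPKM (log2 fold change -0.20), and its sign turned under quantile normalization, to 0.08. SERPING1, the C1 inhibitor, was at 71.3 ± 4.57 and 73.4 ± 2.82 FPKM, and A2M, the broad protease trap alpha-2 macroglobulin, at 307 ± 19.1 and 300 ± 5.73 FPKM, with overlapping groups in both. SERPING1 passed as higher with the GC trend removed, at 0.26, and with read totals, at 0.24, whereas A2M went from -0.03 to 0.16 with read totals (adjusted p = 0.0426, limma).

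The 7 members below the filter were F9, PLAT, PLAUR, KLKB1, HRG, FETUB and SERPINA3, and 6 of them had reads. They were examined by voom in limma on the recovered reads of 22042 genes with at least 10 reads in all, a fit chosen after the data were seen. In that fit 12.8% of all genes were past both thresholds as higher and 4.60% as lower. KLKB1, plasma prekallikrein, had 17, 12 and 18 reads in the sh-NC libraries and 63, 54 and 45 reads in the sh-CLGN libraries. It was the higher in every sh-CLGN library (log2 fold change 1.59, SE 0.29, adjusted p = 4.43e-05, voom in limma). KLKB1 overlaps CYP4V2 on the same strand, which was at 0.77 FPKM in sh-NC and 0.881 FPKM in sh-CLGN.

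SERPINA3, alpha-1 antichymotrypsin, an acute-phase protein, had 25, 34 and 33 reads in the sh-NC libraries and 3, 8 and 7 reads in the sh-CLGN libraries. It was low in each sh-CLGN library, at a log2 fold change of -2.53 (SE 0.44, adjusted p = 2.46e-05, voom in limma). PLAUR, the urokinase receptor, had 19, 34 and 25 reads in the sh-NC libraries and 13, 17 and 11 in the sh-CLGN libraries (log2 fold change -1.06, adjusted p = 0.0108, voom in limma), and its groups were 2 reads apart. PLAT, tissue plasminogen activator, had 4, 5 and 2 reads and then 13, 17 and 7 (log2 fold change 1.46, adjusted p = 0.0336, voom in limma). HRG, histidine-rich glycoprotein, and FETUB, fetuin-B, did not pass, at log2 fold changes of 0.88 (adjusted p = 0.146) and -0.25 (adjusted p = 0.523, voom in limma).

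Other genes of the pathway also moved both ways. Of 11 tested genes of the vitamin K cycle and of factor secretion, which supply the carboxylation, sulfation and transport that clotting factors need, 6 were lower and 2 higher, with a median log2 fold change of -0.23. FURIN, the protease that removes propeptides, was at 378, 378 and 330 FPKM in the sh-NC libraries and 143, 151 and 160 FPKM in the sh-CLGN libraries (log2 fold change -1.25, adjusted p = 5.7e-06, limma; -0.97 with the GC trend removed). NQO1, a quinone reductase, was at 30.1, 29.3 and 30.7 FPKM in the sh-NC libraries and 13.5, 12.4 and 12.01 FPKM in the sh-CLGN libraries (log2 fold change -1.19, adjusted p = 2.76e-06, limma). Both were low in all sh-CLGN libraries.

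Of 11 tested receptors and surface regulators, 5 were lower and 2 higher, with a median of -0.16. F2RL2, the thrombin receptor PAR3, had 13, 10 and 14 reads in the sh-NC libraries and 205, 165 and 154 reads in the sh-CLGN libraries, and rose from 0.245 ± 0.0395 to 3.08 ± 0.392 FPKM (log2 fold change 1.71, adjusted p = 6.14e-06, limma). It was far below 1 FPKM in every sh-NC library, so it passed the filter through sh-CLGN. Of 7 tested other factors and liver proteases, 3 were lower and 2 higher, with a median of -0.12 and 0 past both thresholds. HGFAC, 1 of the 2 higher genes, was below 1 FPKM in every sh-NC library and passed the filter through sh-CLGN, so it had to be higher.

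Of 9 tested other serpins, 2 were lower and 2 higher, with a median of -0.06. SERPINI1, neuroserpin, an inhibitor of tissue plasminogen activator, rose from 4.48 ± 0.269 to 13.1 ± 0.538 FPKM (log2 fold change 1.36, adjusted p = 2.52e-06, limma). Of 26 tested secreted liver plasma proteins outside the group, 14 were lower and 6 higher, with a median of -0.26, and GC (the vitamin D carrier), TF (transferrin), CP (ceruloplasmin) and HP (haptoglobin) passed both thresholds as lower, at log2 fold changes of -2.37, -1.62, -1.34 and -1.22. AFP, alpha-fetoprotein, the most abundant of these proteins and named here after its values were seen, rose from 2670 ± 105 to 3782 ± 145 FPKM (log2 fold change 0.50, adjusted p = 0.00023, limma).

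The members were examined for features of their sequence. GC content of the tested members ranged from 34.8% to 67.5% with a median of 47.0%, compared with 48.9% over all tested genes. The members that fell had a median of 49.1% and those that rose 43.5%. F12, SERPINF2 and F2 were GC-rich, at 67.5%, 61.5% and 59.5%, and removing the trend of fold change on GC content took all 3 below a log2 fold change of 1, while their adjusted p stayed under 0.05 by limma as given above. The fall of FGA changed little, to -0.82, as did the rises of F3, to 1.24, and of TFPI2, to 1.56. What part of the remaining differences is technical was not tested.

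**Figure D5:**
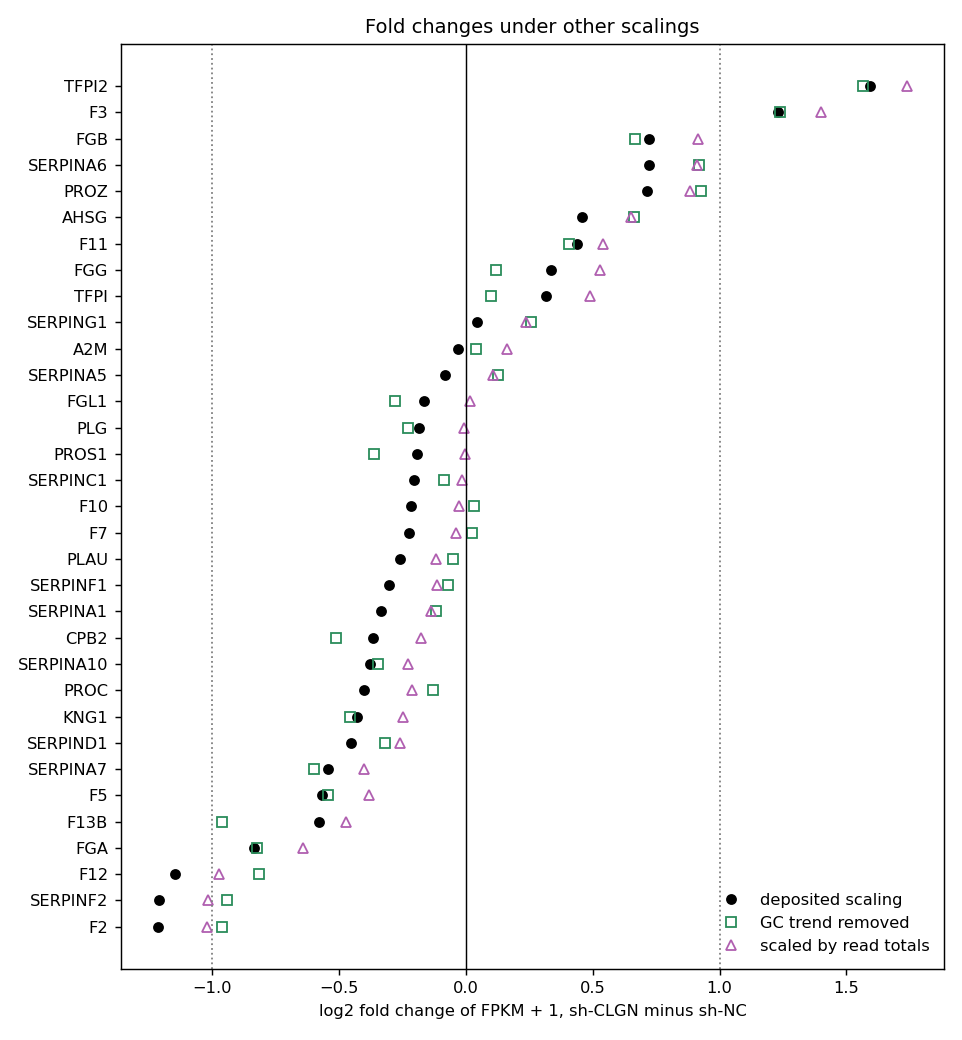
Log2 fold change of the 33 tested members (sh-CLGN minus sh-NC, on FPKM + 1) on the deposited scaling (filled circles), with the GC trend removed (squares) and scaled by read totals (triangles); dotted lines mark 1 in either direction. TFPI2, F3 and FGB stay to the right and FGA, F2, F12 and SERPINF2 to the left in all 3, while A2M, SERPINA5, FGL1, F7 and F10 cross 0 in at least 1.

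Promoters of 33 of the 40 members were matched in RefSeq (GRCh38.p14), and 6-letter or 7-letter motifs were searched on both strands of these windows, and overlaps between motifs were kept. GTTAAT was found in 10 of the 33 (30.3%) and in 6.89% of 27305 promoters. CAAAGTC, a core of the HNF4 motif, was found in 5 (15.2%) and in 3.43% of all. TATAAA was found in 5 (15.2%) and in 12% of all. Of the 9 tested members with GTTAAT, 7 fell (F2, F13B, FGA, PROC, PLG, SERPINA7 and SERPINA10) and 2 rose (FGB and SERPINA6), so genes with the match moved both ways. Of all 33 tested members, 60.6% fell and 27.3% rose. F13B passed the filter through sh-NC and had to fall. The PROC and PLG calls were lost under at least 1 other scaling or the GC correction. The windows of F3, TFPI2, F12 and FGG held no GTTAAT. Heptamers that match the last bases of the target of the sh-CLGN hairpin (ATACCAC or TACCACA or ACCACAA, counted wherever they overlap) were present in the 3′ UTR of 4 of the 33 tested members (12.1%; A2M, FGA, PLG and TFPI), compared with 25.8% of 10908 tested genes with a 3′ UTR. Of those 4, 2 fell, 1 rose and A2M did not pass. The length of the 3′ UTR was not taken into account in either share.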

How the data were processed

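RNA from 6 Hep-G2 libraries (3 sh-NC, 3 sh-CLGN) was analysed. The authors deposited a single table of FPKM with gene lengths and positions, and the submitters' processing notes name HISAT2 2.0.5, featureCounts and GRCh38. The strand setting, the annotation release and the test of the RNA-seq data are not given in the sources used here. All 58735 positions equalled GENCODE 29. Reads that fit several genes may have been left out or counted whole for a gene, so values of overlapping genes and close paralogs are uncertain. Table columns (KD for sh-CLGN) were assigned by name, and the labels gave the groups.

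Multiplied by gene length, FPKM gave whole reads for 100% of values within 0.01 of a read. The library sizes behind the FPKM were 0.933 to 0.953 of the summed reads for sh-NC libraries and 1.07 to 1.08 for sh-CLGN libraries, so the deposited values had been rescaled between libraries. On a gene of 1 kb, 1 read was worth 0.0589 to 0.0717 FPKM. Read numbers, without molecular identifiers, carry at least counting error. Pearson correlations across genes were 0.988 to 0.992 within groups and 0.937 to 0.945 between groups.

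The fit used limma 3.58.1 (R 4.3.3, eBayes with trend, no covariate) on log2(FPKM + 1). Its two-sided p-values were adjusted by Benjamini-Hochberg across the 13074 genes that reached 1 FPKM in 3 or more libraries. This scale understates changes of low genes. Calls needed an adjusted p of at most 0.05 and, for both thresholds, a log2 fold change of 1 or more in size. Ratios were compared by a two-sided exact permutation test. On simulated data with 200 of 13074 genes changed by 1.5 (log2), limma recovered 195 at the adjusted p. That simulation assumed 1 spread for all genes, few changed genes and a large change. It therefore does not measure how well the smaller changes here are found, or how many calls here are false. The alternatives were another pseudocount, filters, scalings, a GC correction (lowess span 0.3, transcripts of GENCODE 29), voom on recovered reads, limma without trend, a replicate block and leaving out each library. Voom on genes with at least 10 reads was added after the data were seen. The members, the lists of other pathway genes and markers, and the rule for names were chosen with earlier results of these data known. By that rule all members were named, with the value in every library for those past both thresholds and for the fibrinogen chains, and genes of other lists were named where past both thresholds, at most 4 a list. Some genes that meet the rule are not reported here. Levels of F11, F13B and the members below the filter were singled out after their values were seen. Ratios, sequence counts and figures were made in Python 3.11.15 (numpy 2.4.6; pandas 2.3.3; scipy 1.17.1; matplotlib 3.10.9).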

Additional observations from a re-analysis of the deposited data

Results flagged for a closer look

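Members below the expression filter were outside the main comparison. Of these, 3 were above the level of the sh-NC libraries in every sh-CLGN library. SERPINA3 and PLAUR went the other way and were below every sh-NC library in each sh-CLGN library. The share of all genes below the filter that separated in this way was not counted. The ratio of mean FPKM, sh-CLGN over sh-NC, was 3.06 for KLKB1, 2.95 for PLAT and 1.80 for HRG. Over the whole table, 23578 to 23793 genes had a read in the sh-NC libraries and 26814 to 27006 in the sh-CLGN libraries. The part of that wider difference in these 3 ratios was not tested. PLAT rested on 2 to 5 reads a library in sh-NC and HRG on 3 to 7, so both ratios are imprecise. The HRG difference did not pass by voom in limma (adjusted p = 0.146).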

How the results depend on the processing

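Of the 33 tested members, 17 kept their call and direction in all 11 alternatives and with each of the 6 libraries left out. TPM rescaling, quantile normalization, read totals and the GC correction moved the median of all tested genes by 0.11, 0.06, 0.16 and 0.07. The 3 members lower past both thresholds became 1 under quantile normalization, 0 with the GC trend removed and 6 by voom on genes with at least 10 reads (F13B, PLAUR and SERPINA3 added), and the 2 higher became 4 under quantile normalization and 4 by that voom fit (KLKB1 and PLAT added). The 20 lower at adjusted p became 11 under quantile normalization and 12 with read totals. Leaving out 1 library gave 3 to 3, 2 to 2, 16 to 20 and, for the 9 higher, 9 to 9. It gave -1.39 to -1.24 for CLGN, 1.52 to 1.59 and 1.16 to 1.19 for the log2 FGB to FGA and FGG to FGA ratios, and 0.0324 to 0.0525 percentage points for the read share. Signs turned for F7 (0.025 with the GC trend removed), F10 (0.058 quantile, 0.033 GC), FGL1 (0.036 quantile, 0.018 read totals), PROS1 (0.094 quantile), SERPINC1 (0.081 quantile), A2M (0.095 TPM, 0.30 quantile, 0.16 read totals, 0.041 GC) and SERPINA5 (0.043 TPM, 0.19 quantile, 0.11 read totals, 0.12 GC). With 1 library left out, A2M ranged from -0.0835 to 0.0012 and SERPING1 from -0.0019 to 0.0891. The causes were not tested. Depth limits the members under the filter, which had 2 to 63 reads a library where detected.

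Whether the replicate numbers pair the libraries cannot be told from these data. Deviations of same-numbered libraries correlated at -0.02, -0.05 and -0.15, and those of differently numbered libraries at -0.08 to 0.11. With the replicate block 17 members were lower and 9 higher at adjusted p, and 3 lower and 2 higher past both thresholds. F7, F10 and PLAU lost their calls under the block.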
